A study of Musa acuminata AAA Group with 4 samples.

Results

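Nitrate reductase (Ma09_g14900), nitrite reductase (Ma09_g14720) and a root-type ferredoxin (Ma09_g30430) were followed in banana leaf and root under normal and low nitrogen. These 3 genes, of 31873 seen in any library, were chosen by their annotated function together with their FPKM and expected counts in the same 4 libraries, so their levels and low-nitrogen differences are descriptions and carry no test. The plants were Cavendish banana (Musa acuminata, AAA Group) rooted in sand and fed for 60 days with Hoagland complete solution (normal N) or with a low-nitrogen solution (low N). The aboveground sample, called leaf here, took in pseudostem besides leaves, and the other sample was root. Each of the 4 groups, normal-N leaf, low-N leaf, normal-N root and low-N root, was 1 library, and the number of plants behind a library is not given in the sources used here.

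Nitrate reductase is the cytosolic enzyme that reduces nitrate to nitrite with electrons from NADH, passed through FAD, a cytochrome b5-type heme and the molybdenum cofactor. Nitrite reductase then reduces nitrite to ammonium inside plastids, on a siroheme and an iron-sulfur cluster, and takes its electrons from reduced ferredoxin. In green leaves photosystem I reduces ferredoxin. In root plastids, which lack photosynthesis, a root-type ferredoxin is reduced by ferredoxin-NADP reductase (FNR) with NADPH from the oxidative pentose phosphate pathway. In many plants nitrate itself induces the genes of this route.

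Depth was similar, with 4144048 to 4408992 expected fragments per library, and the libraries listed between 26796 and 29158 genes. Expected counts are the authors' estimates, which need not be whole, and FPKM scales fragments by gene length and library size. A 95% interval below covers counting error only, never the spread between plants. All 31 leaf markers (RuBisCO small chain, photosystem and antenna genes) were detected in both leaf libraries, where they summed to 54865 FPKM (normal N) and 22488 FPKM (low N). Each of these sums rested mostly on its highest marker, which gave 47042 FPKM of the first and 19671 FPKM of the second. The median over the 31 markers went from 164 FPKM under normal N to 34.4 FPKM under low N. In normal-N root 11 of the 31 were at 0 and the sum was 309 FPKM, of which the highest marker gave 224 FPKM. In low-N root 9 were at 0 and the sum was 171 FPKM, of which the highest marker gave 81.6 FPKM. The 6 root markers, all of the Casparian strip or CASP-like kind, summed to 45.1 FPKM in normal-N root with none at 0 and to 125 FPKM in low-N root with none at 0. They summed to 2.88 FPKM in normal-N leaf with 4 of 6 at 0, and to 29.1 FPKM in low-N leaf with 1 of 6 at 0. Only genes picked by the authors' filter carry descriptions, so every marker had been picked as changed under low N in leaf, root or both. The marker shifts between normal N and low N were thus partly fixed by that choice. How far these shifts in tissue markers enter the values below was not tested, and in bulk tissue fewer cells of a type and less RNA per cell cannot be told apart.

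Nitrate reductase, the entry enzyme, was high in both leaf libraries and normal-N root and low in low-N root. Its leaf levels were 1052 FPKM at normal N and 906 FPKM at low N, and its root levels were 314 FPKM and 17.9 FPKM. By scaled counts it was 17.6-fold lower under low N in root (95% interval 15.3 to 20.3), from 3783 to 216 counts. In leaf it was 1.16-fold lower (ratio 0.860, interval 0.837 to 0.883), from 11981 to 10247 counts. It ranked 56 of 26796 genes by FPKM in normal-N leaf and 421 of 29158 in normal-N root, but 9845 of 29130 in low-N root.

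Nitrite reductase, the plastid enzyme of the next step, was likewise high in both leaf libraries and normal-N root and low in low-N root. It was at 348 FPKM in normal-N leaf, 374 FPKM in low-N leaf, 199 FPKM in normal-N root and 8.11 FPKM in low-N root. In root it was 24.6-fold lower under low N (19.2 to 32.1), from 1595 to 65 counts. Its leaf ratio of 1.07 (1.02 to 1.13) had no stable direction, since scaling by median ratios gave 0.924 and scaling by upper quartiles gave 0.983.

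The ferredoxin, described as root R-B2-like, was high in normal-N root and low in the other libraries. It was at 605 FPKM there and at 25.6 FPKM in low-N root, against 10.5 FPKM in leaf at normal N and 12.3 FPKM in leaf at low N. It was 23.7-fold lower under low N in root (17.8 to 32.2), from 1158 to 49 counts. The leaf libraries gave it 19 and 22 counts, a ratio of 1.16 whose interval of 0.601 to 2.27 leaves its direction unsettled. Its place by FPKM in root went from 142 of 29158 genes to 7401 of 29130.

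**Figure D1:**
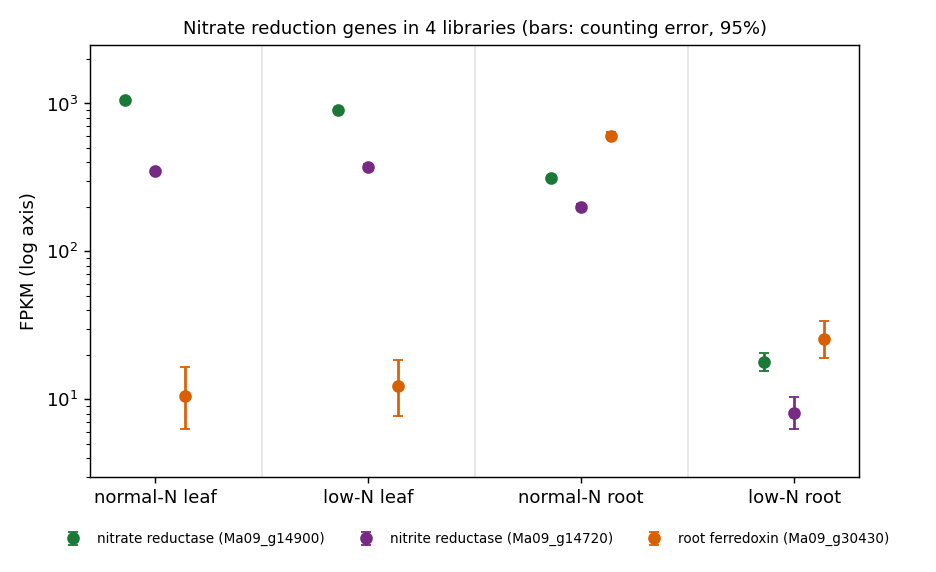
FPKM on a log axis of nitrate reductase, nitrite reductase and root ferredoxin in the 4 libraries, 1 point per library, with bars for the 95% counting interval. All 3 genes sit between 199 and 605 FPKM in normal-N root and between 8.11 and 25.6 FPKM in low-N root, while each keeps a similar level in both leaf libraries.

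The size rule took a gene as higher or lower if log2 of (FPKM + 1) differed by at least 1 and its higher library reached 2 FPKM. By that rule 3 of 3 members were lower in low-N root, beside 6.90% of the 24476 genes at the filter that were lower and 4.67% that were higher. In leaf 0 of 3 were past the rule, beside 11.7% of 21715 genes higher and 6.70% lower. The authors' deposited table for root lists all 3 as lower, as it does for 2.69% of the genes seen in root, and the authors' deposited table for leaf, which holds 7.80% of the genes seen in leaf, lists none of them. Nothing is read from these counts, because the root values took part in choosing the genes. On the log2 (FPKM + 1) scale only 7 genes of the 24476 had a root change at or below that of the ferredoxin, -4.51, itself included. For nitrite reductase, at -4.46, the number was 8, and for nitrate reductase, at -4.06, it was 16.

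The gap between leaf and root was larger under low N for both reductases and smaller for the ferredoxin. Nitrate reductase was 3.34-fold higher in leaf than in root under normal N (3.22 to 3.47) and 50.5-fold higher under low N (44.1 to 58.0). Nitrite reductase was 1.74-fold higher in leaf under normal N (1.64 to 1.85) and 46.0-fold higher under low N (36.0 to 59.8). The ferredoxin was 57.8-fold lower in leaf than in root under normal N (36.8 to 96.3) and 2.09-fold lower under low N (1.24 to 3.64). By size, both reductases were among the 22.8% of genes higher in leaf under low N, and nitrate reductase was also among the 20.1% higher in leaf under normal N, while nitrite reductase missed the limit there as deposited. The ferredoxin was among the 42.2% of genes higher in root under normal N. Under low N it was among the 37.1% higher in root, with a difference in log2 (FPKM + 1) right at the limit of 1. Leaf and root libraries differ in make-up, and median-ratio scaling moved the ratio under normal N to 4.72 for nitrate reductase and to 2.46 for nitrite reductase.

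The low-N log2 ratio in root minus that in leaf was -3.92 for nitrate reductase (counting error 0.10, SE), -4.72 for nitrite reductase (0.19) and -4.79 for the ferredoxin (0.50). With 1 library in each group this difference has no error from plants, and it was not tested.

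Ratios between genes within a library do not depend on library scaling. Nitrate reductase stood at 3.02 times the FPKM of nitrite reductase in normal-N leaf (2.90 to 3.15), 2.42 times in low-N leaf (2.32 to 2.52), 1.57 times in normal-N root (1.48 to 1.67) and 2.20 times in low-N root (1.66 to 2.95). In leaf the ratio was thus lower under low N than under normal N beyond counting error, and in root the intervals overlapped only at their ends. Ferredoxin stood at 3.04 times the FPKM of nitrite reductase in root at normal N (2.82 to 3.28) and at 3.15 times in root at low N (2.13 to 4.64). In leaf the same ratio was 0.030 under normal N (0.018 to 0.047) and 0.033 under low N (0.021 to 0.050).

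Other nitrate reductase genes were found at far lower levels. Besides Ma09_g14900, the BLAST descriptions named Ma03_g07170 and Ma05_g05570, and the KEGG text named Ma05_g05580, whose number follows directly on that of Ma05_g05570. The KEGG text also gives that name to Ma05_g17670 and Ma06_g30320, which BLAST describes as cytochrome b5-like and which are given with the cytochrome b5 genes. Ma03_g07170 was at 15.7 FPKM in leaf at normal N and 31.9 FPKM at low N, and at 9.33 FPKM and 0.42 FPKM in root. It was 2.03-fold higher under low N in leaf (1.69 to 2.44) and 22.7-fold lower in root (9.44 to 71.2), where low-N root held 5 counts. Ma05_g05570 was at 13.1, 11.1, 5.16 and 0.33 FPKM in the same order, with 2 counts in low-N root. Ma05_g05580 was at 3.34, 11.8, 5.29 and 0 FPKM and, taking 3 counts as the floor for low-N root, was at least 8.39-fold lower there. Ma05_g05570 and Ma05_g05580 are listed at 1374 and 1077 bases, against 2685 for Ma09_g14900 and 2706 for Ma03_g07170. Whether the shorter genes are parts of a single gene was not tested. Ma09_g14900 and the other 3 nitrate reductase genes were thus all lower in low-N root, and in leaf they did not go one way. All were picked for root by the authors' filter, so their shared root direction is not independent evidence.

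Most expected counts of these 4 genes are not whole. How the authors' counting treated fragments shared between similar copies was not tested, and the levels of the minor genes are uncertain. Ma09_g14900 took 95.5% to 97.8% of the counts summed over these 4 genes in every library. Only genes picked by the authors' filter carry descriptions, so an unpicked nitrate reductase gene would be missing from the sum. Summed over the 4 genes, counts were 17.8-fold lower under low N in root (15.5 to 20.5) and 1.14-fold lower in leaf (1.11 to 1.17).

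Among genes of electron supply, 2 were highest in leaf and 3 in normal-N root. The other gene described as a ferredoxin, ferredoxin-like Ma01_g23400, was at 716 FPKM in normal-N leaf, 317 FPKM in low-N leaf, 7.32 FPKM in normal-N root and 2.09 FPKM in low-N root. The FNR leaf isozyme Ma11_g01370, which passes electrons from ferredoxin to NADP in photosynthesis, was at 433, 181, 0.61 and 0.61 FPKM in that order. Both were lower in low-N leaf, 2.26-fold (2.05 to 2.50) and 2.40-fold (2.21 to 2.61); the root ferredoxin ratio there was 1.16. An uncharacterized gene that only the KEGG text calls a ferredoxin, Ma03_g21600, was at 60.3 and 26.8 FPKM in leaf and at 0 in both root libraries.

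The FNR root isozyme Ma04_g34890, which reduces ferredoxin in root plastids, was at 318 FPKM in normal-N root and 40.0 FPKM in low-N root, 7.98-fold lower (6.89 to 9.29). In leaf it was at 38.8 and 46.5 FPKM. The FNR embryo isozyme Ma04_g38200 was at 305 and 90.1 FPKM in root, 3.39-fold lower (3.05 to 3.77), and at 40.9 and 33.3 FPKM in leaf. These root FNR genes were lower in low-N root by less than the ferredoxin, and the ratio of root ferredoxin to root FNR (Ma04_g34890) went from 1.90 in normal-N root (1.76 to 2.06) to 0.640 in low-N root (0.458 to 0.878). Root ferredoxin still stood at 12.2 times the FPKM of Ma01_g23400 in low-N root (4.49 to 46.7), against 82.7 times in normal-N root (49.1 to 152).

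**Figure D2:**
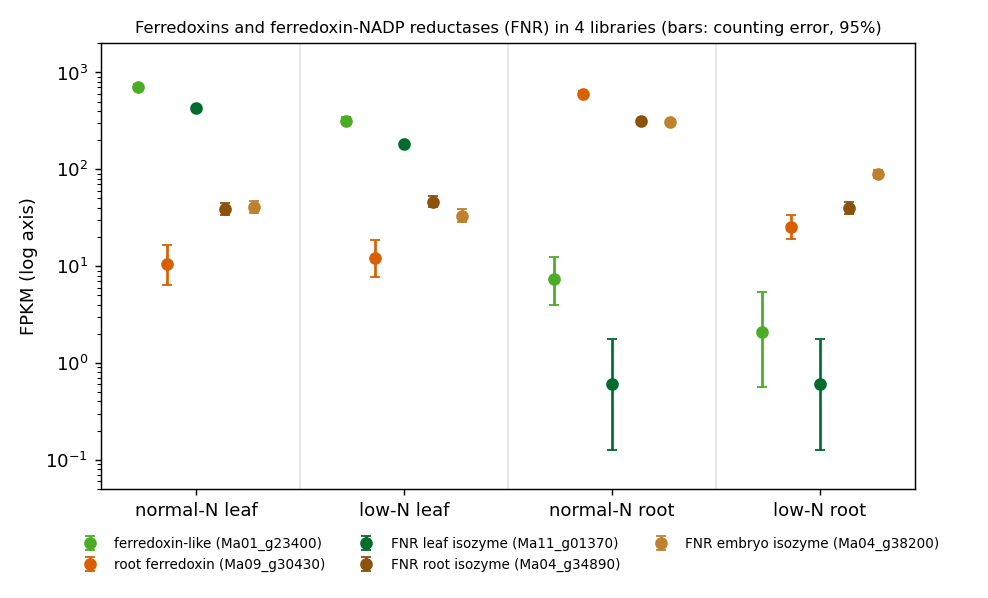
FPKM on a log axis of 2 ferredoxins and 3 ferredoxin-NADP reductases (FNR) in the 4 libraries, 1 point per library, with bars for the 95% counting interval. Ma01_g23400 and the FNR leaf isozyme are the high genes in leaf, and root ferredoxin with the FNR root and embryo isozymes are the high genes in normal-N root, at 605, 318 and 305 FPKM.

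The oxidative pentose phosphate pathway, which makes NADPH in root plastids, was represented by 2 chloroplast-type genes, both lower in low-N root. Only genes picked by the authors' filter carry descriptions, and both were picked for root, so their shared direction is not independent evidence. Glucose-6-phosphate 1-dehydrogenase (Ma06_g18080), its first enzyme, was at 114 and 36.0 FPKM in root, 3.17-fold lower (2.77 to 3.63), and at 7.27 and 12.3 FPKM in leaf. 6-Phosphogluconate dehydrogenase (Ma03_g17510) was at 119 and 49.2 FPKM in root, 2.42-fold lower (2.12 to 2.76), and at 17.2 and 19.8 FPKM in leaf.

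Few genes of siroheme and molybdenum supply were described, and only genes picked by the authors' filter carry descriptions. Uroporphyrinogen-III C-methyltransferase (Ma06_g28880), which opens the branch to siroheme, was at 45.8 and 11.3 FPKM in root, 4.05-fold lower (3.05 to 5.45), and at 30.4 and 43.1 FPKM in leaf. Uroporphyrinogen-III synthase (Ma02_g09590), which lies upstream of siroheme, heme and chlorophyll alike, was at 3.53 and 2.02 FPKM in root and was 2.25-fold lower in leaf (1.49 to 3.48), at 20.6 and 9.15 FPKM. For molybdenum the descriptions held molybdate transporters only. The KEGG text added a molybdenum cofactor sulfurtransferase (Ma05_g01670), at 13.3 and 14.5 FPKM in root and 0.97 and 3.13 FPKM in leaf. It also added Ma03_g19020 as a uroporphyrinogen decarboxylase, higher in low-N root by size at 10.5 and 30.2 FPKM, although its BLAST description names an unrelated amidase. Molybdate transporter 2 (Ma06_g03340) was at 116 and 28.2 FPKM in root, 4.13-fold lower (3.50 to 4.90), and at 81.4 and 113 FPKM in leaf.

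Of 2 genes described as molybdate transporter 1-like, Ma03_g28120 was at 22.4 and 0.82 FPKM in root, 27.3-fold lower (11.4 to 85.4). Ma03_g14710 was at 8.03 and 0 FPKM there and, with the same floor, at least 16.3-fold lower. In leaf Ma03_g14710 was also lower under low N, at 4.07 and 0.35 FPKM from 23 and 2 counts, while Ma03_g28120 had 2 and 0 counts.

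Among genes that share partners or domains with the reductases, a uniform root pattern was not seen. Sulfite reductase (Ma01_g16340), a plastid enzyme that also uses ferredoxin and siroheme, was at 13.8 and 11.8 FPKM in root, a 1.17-fold lower level whose interval (0.898 to 1.52) includes no difference. In leaf it was 2.10-fold lower under low N (1.87 to 2.35). Cytochrome b5-like Ma05_g17670 was 7.03-fold lower in low-N root (3.99 to 13.3), at 59.8 and 8.53 FPKM, and Ma06_g30320, of the same description, was at 168 and 131 FPKM. Of the 14-3-3 proteins, a family that binds and inactivates phosphorylated nitrate reductase, Ma05_g25470 was at 139 and 134 FPKM in root and Ma04_g37170 at 78.4 and 78.1 FPKM. GF14 kappa (Ma03_g06680) was at 26.1 and 11.8 FPKM in root, a ratio of 0.452 (0.301 to 0.667). In leaf Ma05_g25470 was 2.04-fold higher under low N (1.72 to 2.42). Ma04_g37170 was 3.69-fold lower there (2.13 to 6.72) and GF14 kappa 2.27-fold lower (1.79 to 2.89). Of the cytochrome b5-like genes, Ma06_g30320 was 2.26-fold lower in leaf (1.48 to 3.52), and Ma05_g17670 was at 7.10 and 6.50 FPKM.

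**Figure D3:**
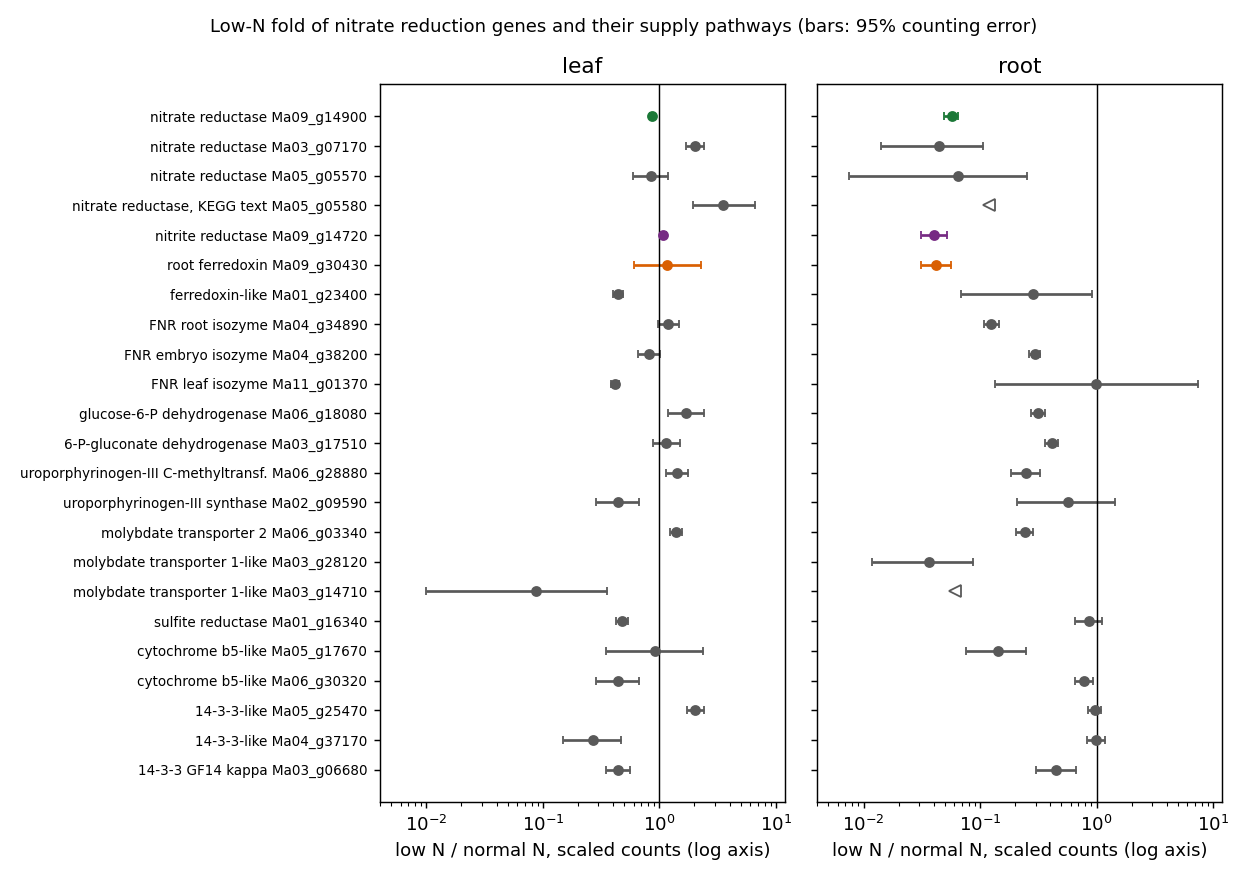
Ratio of scaled counts, low N over normal N, on a log axis for leaf and root, for the nitrate reduction genes and the genes of their supply pathways; bars are 95% counting intervals and open triangles mark ratios bounded with the floor of 3 counts. In root the 3 coloured genes lie at 0.057, 0.041 and 0.042, and in leaf at 0.860, 1.07 and 1.16; Ma03_g28120 has no leaf point because its leaf counts were under the floor.

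Apart from the 3 members, the 10 lists held 19 genes, of which 18 were at the filter in root. Of these 13 were lower by size and 0 higher, with a median log2 (FPKM + 1) change of -1.69, beside 6.90% lower, 4.67% higher and a median of -0.01 over all genes at the filter. In leaf 18 were at the filter, 8 lower and 1 higher, with a median of -0.25, beside 6.70% lower, 11.7% higher and a median of 0.12. Adding genes named by the KEGG text gave 14 lower and 1 higher of 21 in root, and 9 lower and 3 higher of 21 in leaf. Descriptions came only from the authors' filtered tables, and 12 of the 19 genes were picked there for root and 10 for leaf, so these counts are not independent evidence of a direction.

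Pattern likeness was taken as the distance between log2 (FPKM + 1) values, centred over the 4 libraries, among 18578 other genes with at least 10 FPKM in any library. The members were chosen partly by these same values, so nearness among them is a description and carries no test. The gene nearest to nitrite reductase was nitrate reductase, at a distance of 0.68, and nitrite reductase was the second nearest to nitrate reductase. The gene nearer still, at 0.44, was Ma06_g23010, an undescribed gene of 75 bases with 13 and 11 counts in leaf and 3 and 0 counts in root, too few to fix its pattern. With a pseudocount of 0.1 nitrite reductase was the nearest of all to nitrate reductase. Placed at rank 3 for both reductases, behind Ma06_g23010 in each case, was a naringenin 3-dioxygenase-like gene of flavonoid synthesis (Ma04_g23390), at 35.8 and 60.7 FPKM in leaf and 13.0 and 0.67 FPKM in root. Its low-N root level rests on 3 counts, and in leaf it was 1.66-fold higher under low N (1.35 to 2.05). With the pseudocount of 0.1 it was at rank 2 for nitrate reductase and at rank 4 for nitrite reductase, and Ma06_g23010 left the nearest genes of both.

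The ferredoxin, low in leaf, stood at a distance of 7.04 from nitrate reductase and 6.44 from nitrite reductase. Its 3 nearest genes were the uncharacterized Ma11_g17160 (0.42) and Ma09_g27320 (0.65) and an ESKIMO 1-like gene (Ma08_g21920, 0.73). Ma08_g21920 was at 35.7 FPKM in normal-N root and 2.08 FPKM in low-N root, from 240 and 14 counts, and the other 2 had 48 and 29 counts in normal-N root. With a pseudocount of 0.1 none of these 3 stayed among its 3 nearest.

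**Figure D4:**
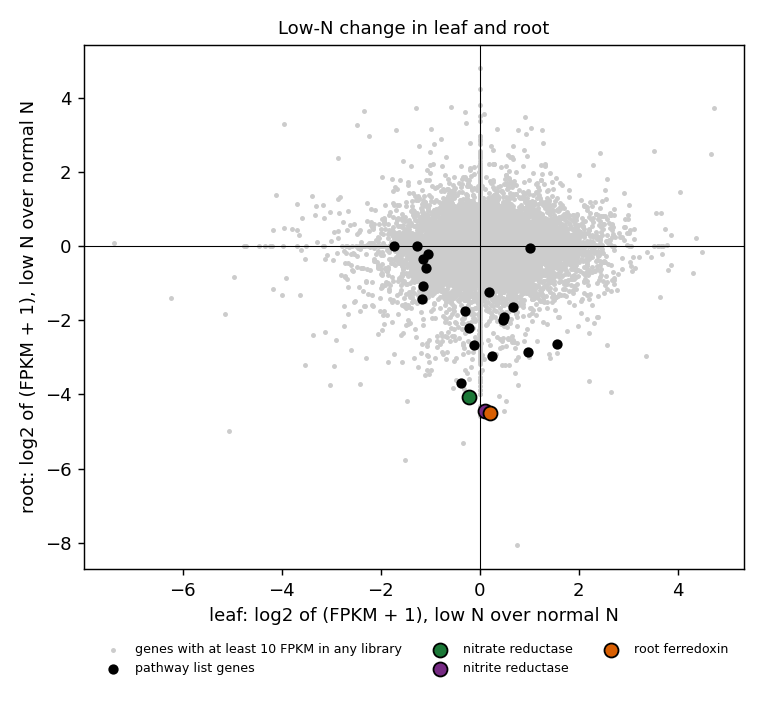
Change under low N, as log2 of (FPKM + 1) over normal N, in leaf (horizontal) and root (vertical). Grey points are genes with at least 10 FPKM in any library, and coloured points are the 3 members. Black points are the other pathway list genes that reached 10 FPKM, with Ma05_g05580, which only the KEGG text names. List gene Ma03_g14710, at 8.03 FPKM at most, is not drawn. The members lie near 0 in leaf, at -0.22, 0.10 and 0.20, and at -4.06, -4.46 and -4.51 in root.

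The numbers of nitrite reductase and nitrate reductase lie close together in the series Ma09, with 16 genes numbered between them that were seen in any library. Of these 8 reached 10 FPKM in a library, and none of the 8 is described in the authors' tables. In root 0 of the 8 were past the size rule, with changes of -0.77 to 0.38. Over all genes at the filter in root, 6.90% were lower and 4.67% higher. In leaf 6 of the 8 were at the filter and 1 was higher by size, beside 11.7% higher and 6.70% lower over all genes. It was Ma09_g14850, at 15.5 and 35.8 FPKM from 17 and 39 counts. With so few genes, nothing is read from these counts. The most abundant of the 8, Ma09_g14750, was at 159 FPKM in normal-N root and 171 FPKM in low-N root.

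**Figure D5:**
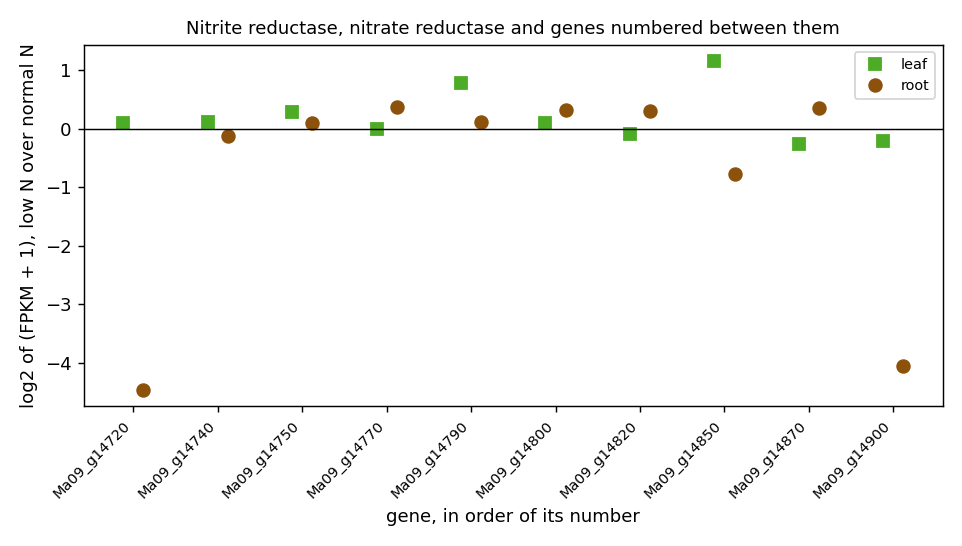
Change under low N, as log2 of (FPKM + 1) over normal N, in leaf (squares) and root (circles) for nitrite reductase, nitrate reductase and the 8 genes numbered between them with at least 10 FPKM in any library, in order of number. In root only the 2 reductases lie below -4, and the 8 genes between them lie from -0.77 to 0.38.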

How the data were processed

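Per the labels, libraries were made from poly(A)-selected, fragmented RNA by random priming, with no step that marks strand. BWA and Bowtie stand in the submitters' processing notes, with no role or version. The sources used here do not give the counting tool, genome build, annotation or use of strand. Per the file headers, the authors deposited an expected count and an FPKM value per gene and library. A gene missing from a library's list was read as 0. For short genes the deposited FPKM was higher than the expected count over the listed length gives. The authors' comparison tables hold log2 ratios, p-values and FDRs of library against library; the p-values were not used, and the tables also gave the descriptions (BLAST, KEGG).

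Each fold divides the rounded expected counts of both libraries after scaling to their totals, and its 95% interval is Clopper-Pearson (exact); FPKM carried exact Poisson intervals (scipy 1.17.1). Fragments are not independent molecules, so intervals cover counting error only. With 1 library per group no test was run. Named genes were the members, list genes with at least 5 FPKM (no list had more than 4), the 3 nearest in pattern and genes numbered between the reductases with at least 10 FPKM. Genes named by KEGG text alone (Ma05_g05580, Ma03_g21600, Ma05_g01670, Ma03_g19020) were chosen after their values were seen. Alternatives were other scalings, pseudocounts, filters and size limits and, added after seeing the data, counts summed over the nitrate reductase genes. The size rule and intervals were run on counts simulated from normal-N root with counting error only, and with changes in well-expressed genes only. That run cannot show how they behave with spread between plants or at low levels. Members and lists were chosen with earlier results of these data known. Sequences were not used here.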

Additional observations from a re-analysis of the deposited data

Results flagged for a closer look

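Among members and list genes with counts in all 4 libraries, 5 had low-N ratios in opposite directions in leaf and root. Their counting intervals lay off 1 in both tissues when counts were scaled by library totals. Genes outside that group were not counted, such as Ma05_g05580, with no counts in low-N root, and Ma04_g23390, which is on no list. The difference between tissues was not tested, because each group had 1 library. The log2 ratio in root minus that in leaf was -5.51 for the nitrate reductase Ma03_g07170, -4.72 for nitrite reductase (Ma09_g14720), -2.52 for uroporphyrinogen-III C-methyltransferase (Ma06_g28880), -2.51 for molybdate transporter 2 (Ma06_g03340) and -2.41 for glucose-6-phosphate 1-dehydrogenase (Ma06_g18080). The leaf ratios behind them were 2.03, 1.07, 1.42, 1.38 and 1.69. That of nitrite reductase changed sign with the scaling.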

How the results depend on the processing

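The root ratios of the 3 members and their direction moved by less than their counting intervals under FPKM ratios, median-ratio size factors, upper quartiles and totals without the 10 most abundant genes. In leaf nitrite reductase changed direction, to 0.924 under median ratios and 0.983 under upper quartiles (the cause was not tested), and nitrate reductase moved to 0.741 and 0.787. Leaf over root under normal N, nitrate reductase moved to 4.72, 3.80 and 3.64 and nitrite reductase to 2.46, 1.98 and 1.90 under median ratios, upper quartiles and totals without the 10 genes. Under low N nitrate reductase moved to 59.1 under median ratios, and its tissue difference to -3.65. Among the other single-gene values, counted once for each setting, 20 moved, including the rank of nitrite reductase by pattern likeness to nitrate reductase. None of the ratios among these values whose interval lay off 1 changed direction. Summing counts over the 4 nitrate reductase genes, an alternative chosen after seeing the data, moved no value beyond its interval. Counts of genes past the size rule depended on the rule. With a pseudocount of 5, 1026 were higher and 593 lower in leaf and 341 and 680 in root; with a filter of 10 FPKM, 1388 and 778 in leaf and 491 and 852 in root; with a size limit of 2, 426 and 272 in leaf and 185 and 393 in root. Median-ratio scaling gave 1975 higher and 2274 lower in leaf, 46.5% higher against 63.6% as deposited, and moved the median leaf change of all genes from 0.12 to -0.09. In each of these rules the 3 members were lower in root and past none in leaf. With KEGG text the lists held 3 genes higher in leaf and 1 in root, against 1 and 0 from descriptions alone. They held 9 lower in leaf and 14 in root, against 8 and 13. No paired analysis was possible because each group had 1 library. Depth limits low-count values most: ferredoxin in leaf, and all genes with fewer than 10 counts in low-N root.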

Other observations

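A set of genes was drawn after the values were seen: at least 10 FPKM in any library, a root change of -3 or below and a leaf change within 0.5 on the log2 (FPKM + 1) scale. It held 44 of 18579 genes, the 3 members among them. Only 6 of the 44 reached 10 FPKM in both leaf libraries, among them nitrate reductase and nitrite reductase. Root ferredoxin was at that limit, with 10.5 FPKM (6.33 to 16.4) and 12.3 FPKM (7.69 to 18.6) in leaf. The other 3 were the short gene Ma06_g23010, an uncharacterized gene (Ma09_g31140) and a class V heat shock protein (Ma09_g11240). Ma09_g31140 was at 134 FPKM in normal-N leaf, 183 FPKM in low-N leaf, 120 FPKM in normal-N root and 12.1 FPKM in low-N root. Most of the 44 were root genes with little leaf signal. They included a glutamine synthetase (Ma01_g15700), which fixes ammonium, at 360 and 36.7 FPKM in root. They also included alcohol dehydrogenase 1 (Ma02_g09950), an enzyme of ethanol fermentation, at 476 and 38.0 FPKM in root. A further member was an ACC oxidase of ethylene synthesis (Ma05_g09360), at 201 and 4.10 FPKM in root. A coproporphyrinogen-III oxidase of the heme pathway (Ma02_g04400) was at 21.7 and 0.77 FPKM. The set was chosen on these values, so it carries no test.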
